A study of Homo sapiens with 4 samples.

Results

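The proteasome is the barrel-shaped protease that degrades ubiquitin-tagged proteins in the cytosol and nucleus. Its genes were followed here by sequencing of messenger RNA in MDA-MB-231, an established line of human breast cancer cells of the triple-negative kind. The genes were chosen by the spelling of their symbols, PSMA to PSMG followed by a digit, and not by their values. Of 20263 genes in the count table, 50 met that rule. PSMC3IP, a partner in meiotic recombination, and PSME3IP1, a protein that binds PSME3, are no parts of the proteasome, which left 48 genes in 7 classes. Cells had been given the solvent dimethyl sulfoxide (DMSO, n = 2 libraries) or the compound YW-LF (n = 2 libraries) for 24 h, in medium with 10% fetal bovine serum. The series title describes YW-LF as derived from ribociclib, which blocks the kinases CDK4 and CDK6 of the cell cycle. The sources used here do not give its dose. The labels name no transgene and do not state whether each replicate was its own culture. The p-values therefore reflect only how far these libraries spread, which may be technical.

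As background, the catalytic 20S core is a stack of alpha and beta rings. The PSMB5, PSMB6 and PSMB7 subunits of the beta rings cut proteins. The 19S cap binds ubiquitin chains, unfolds the substrate with its PSMC ATPases and removes the chains with PSMD14. In cells that receive interferon, PSMB8, PSMB9 and PSMB10 take the place of PSMB5, PSMB6 and PSMB7 to form the immunoproteasome, and the PA28 activator of PSME1 and PSME2 joins it, which changes the peptides offered on MHC class I. PSMG1 to PSMG4 are chaperones of core assembly, and PSMD5, PSMD9 and PSMD10 are chaperones of the cap base.

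Total counts per library were 34774542 to 40218240. Values are CPM, each gene's counts divided by its library's size in units of 1e6 counts after scaling by the trimmed mean of M-values (TMM), a scaling that discounts a few very abundant genes, and 1 count equals 0.0199 to 0.0324 CPM. The libraries given YW-LF differed from each other more than the DMSO libraries did, with an SD of the log2 ratio over 13816 genes of 1.25 against 0.61. Over the proteasome genes these values were 0.70 and 0.29. The mitochondrial genome gave 8.68% of counts in the first DMSO library, 21.7% in the second, 3.14% in the first YW-LF library and 6.58% in the second. The part of these differences in the results below was not tested. Of 7 markers set for the line, VIM, CD44, AXL, CAV1, ZEB1 and FN1 stood at 45.6 CPM or more in each library, while SPARC stood at 1.02 CPM at most. The line was set to lack ESR1, PGR and CDH1, a high level of EPCAM and amplification of ERBB2. ESR1, PGR and CDH1 were at 1.73 CPM or less. EPCAM was at 5.53 to 9.35 CPM and ERBB2 at 30.2 to 71.9 CPM, so both were detected. Amplification of ERBB2 was not measured. Of leukocyte markers, CD3E had 0 counts, PTPRC had 3 to 29 counts and CD68 stood at 149 to 333 CPM. Of the endothelial markers, CDH5 had 0 counts and PECAM1 had 5 to 41 counts, fewer in CPM in both treated libraries than in DMSO. The luminal epithelial markers KRT8, KRT18, GATA3 and FOXA1 summed to 509 and 628 CPM in DMSO and to 260.0 and 589 CPM with YW-LF. Of these 4, 3 were below DMSO in both treated libraries, as were 5 of the 7 markers of the line. The share of all genes tested that lay below was 27.8%. The part of these marker shifts in the results was not tested.

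No proteasome gene passed the threshold for a difference between YW-LF and DMSO after adjustment over all 13816 genes tested. By the quasi-likelihood test of edgeR, adjusted after Benjamini and Hochberg, the calls were 0 of the 46 proteasome genes that passed the filter on low counts, and 0% of all genes tested. The lowest adjusted p among them was 0.157. At an unadjusted p under 0.05, 4 proteasome genes were higher in YW-LF (8.7%, against 11.5% of all genes tested) and 1 was lower (2.17%, against 9.01%). Those 4 were PSMB9, PSME2, PSMA2 and PSMD4, and the lower gene was PSMG1. DESeq2 called PSMB9 higher and 0 genes lower among the 46, where it called 5.94% of 14154 genes higher and 4.4% lower. Both treated libraries exceeded both DMSO libraries in 14 of the 46 (30.4%, against 28% of all genes tested) and were both below them in 5 (10.9%, against 27.8%). The share above is near that of all genes. RNA was taken from whole cultures, so fewer transcripts per cell and fewer cells with the transcript cannot be told apart.

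The proteasome genes differed more between the libraries given YW-LF than the medians differed between treatments. In YW-LF replicate 2, 35 of 46 proteasome genes stood above both DMSO libraries (76.1%, against 43.3% of all genes tested) and 8 stood below them (17.4%, against 45.6%). In YW-LF replicate 1 only 16 of 46 stood above both DMSO libraries, where 44% of all genes tested did, and 24 stood below (52.2%, against 41.9%). Replicate 2 exceeded replicate 1 in 39 of the 46, while 49.5% of all genes tested did so. The median log2 ratio of replicate 2 to replicate 1 was 1.005 over the proteasome genes and -0.01 over all genes tested. For the proteasome genes, the median difference between treatments (log2 fold change) was 0.52 with all libraries (0.06 over all genes tested), 0.84 without YW-LF replicate 1 and -0.14 when replicate 2 was left out instead. Across genes, the log2 ratio of YW-LF replicate 2 to DMSO had a Spearman correlation with transcript length of -0.25 over the 46 and -0.24 over 13800 genes, and with length and GC content corrected for, the median of the proteasome genes was 0.36. Without YW-LF replicate 1, 27 of the 46 were called by edgeR (26 higher, against 21% of all genes tested, and 1 lower, against 20.7%). Without YW-LF replicate 2, 4 were called: PSMB9 higher (1, against 10.1%) and PSMG1, PSME3 and PSMD11 lower (3, against 10.2%). Without DMSO replicate 1 or 2, the median log2 fold change of the proteasome genes was 0.66 and 0.47 (0.13 and 0.09 over all genes tested). In these fits the lone library is assumed to vary like the other group. The plot of every tested proteasome gene in each library shows the classes in which this held.

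**Figure D1:**
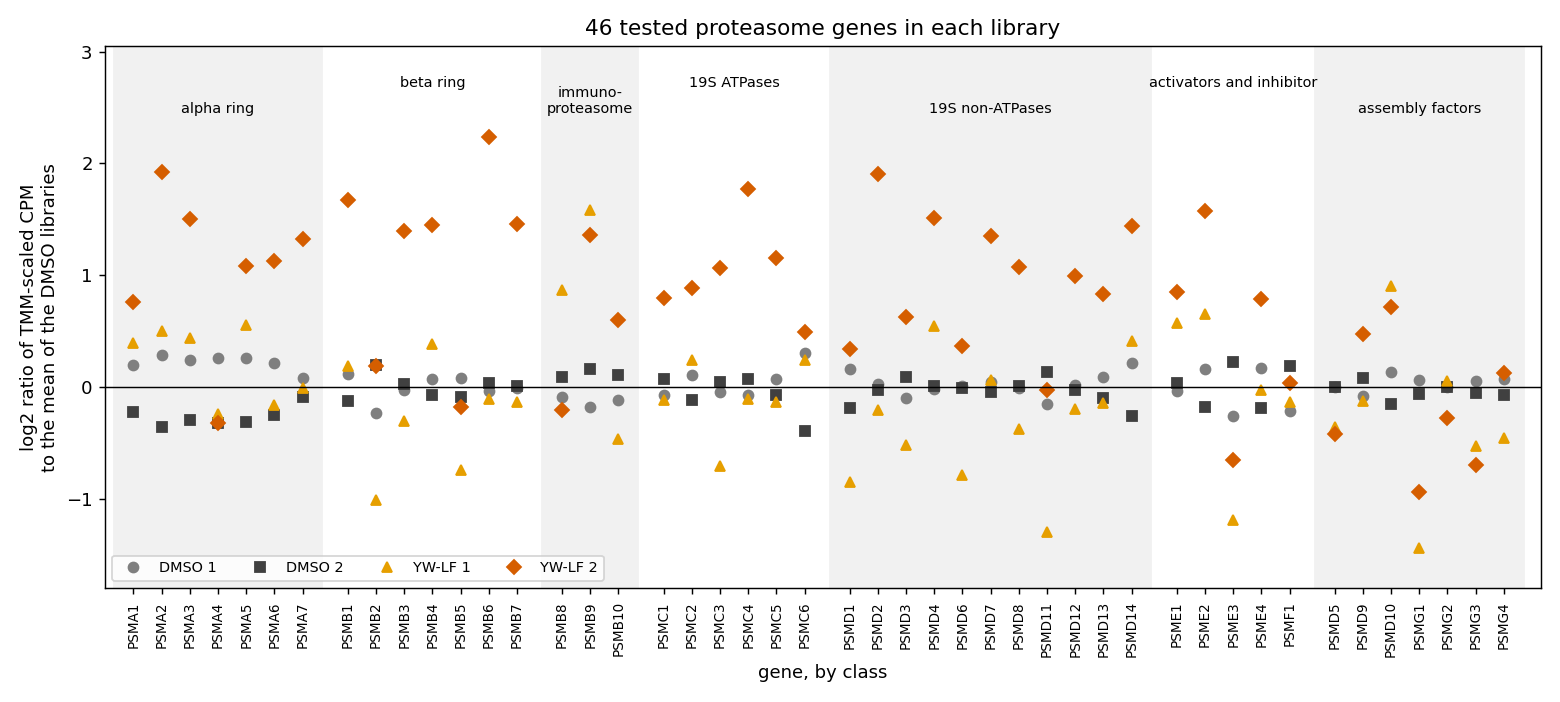
Each column is 1 of 46 tested proteasome genes, grouped by class, and each point is 1 library. The vertical axis gives the log2 ratio of TMM-scaled CPM to the mean of the DMSO libraries. The points of YW-LF replicate 2 stand above both DMSO points in 35 genes, most of them in the core and the cap, while those of YW-LF replicate 1 stand above in 16.

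The alpha ring, the outer ring of the core that controls entry, leaned to the high side in both treated libraries. Its summed level was 752 and 562 CPM in DMSO replicates 1 and 2, 753 CPM in the first YW-LF library and 1462 CPM in the second. Only YW-LF replicate 2 was far from the others, and replicate 1 was level with the higher DMSO library. Of the 7 tested members, 4 (PSMA1, PSMA2, PSMA3 and PSMA5) were above DMSO in both libraries, 0 were below (28% above and 27.8% below among all genes tested), and the median of the 7 was 0.81 (0.38 to 1.12 when 1 library at a time was left out). PSMA2 had the highest value of the class, with 58.0 and 37.0 CPM in DMSO and 67.2 and 180.5 CPM in YW-LF. The YW-LF libraries did not overlap with DMSO, but replicate 1 lay close to the higher DMSO library (log2 fold change 1.38, SE 0.55, edgeR unadjusted p = 0.0433, adjusted p = 0.234). Without YW-LF replicate 2 the log2 fold change of PSMA2 was 0.49, and without YW-LF replicate 1 it was 1.92. PSMA4 went the other way, with 92.0 and 61.5 CPM in DMSO and 65.2 and 61.3 CPM with YW-LF (-0.28, SE 0.37). Its groups overlapped, and the sign turned to 0.05 without DMSO replicate 1. PSMA8, the testis form of an alpha subunit, had 0 counts in each library, which allows at most 0.0597 to 0.0971 CPM at 3 counts (counting error only). The structural subunits PSMA1, PSMA3, PSMA5, PSMA6 and PSMA7 ran from 0.59 for PSMA1 to 1.07 for PSMA3 in log2 fold change, and PSMA6 and PSMA7 overlapped with DMSO through YW-LF replicate 1.

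The constitutive beta ring held genes that set the treated libraries far apart. It summed to 832 and 834 CPM in DMSO, 770 CPM in the first YW-LF library and 2138 CPM in the second. PSMB6, which carries the caspase-like activity, stood at 72.6 and 76.0 CPM in DMSO and at 69.1 and 349.7 CPM in YW-LF. Replicate 1 was thus below both DMSO libraries and replicate 2 far above them, and the log2 fold change of 1.495 (SE 0.72, adjusted p = 0.293 by edgeR) became -0.12 without YW-LF replicate 2 and 2.23 when replicate 1 was left out instead. PSMB7, which carries the trypsin-like activity, had the same form, at 149 and 150 CPM in DMSO and 136 and 410 CPM with YW-LF (0.87, SE 0.57; -0.15 without YW-LF replicate 2). PSMB5, which carries the chymotrypsin-like activity and binds the drug bortezomib, did not follow them. It stood at 63.7 and 56.8 CPM in DMSO and at 36.1 and 53.2 CPM in YW-LF, so both treated libraries were lower (log2 fold change -0.43, SE 0.37, adjusted p = 0.537 by edgeR). For PSMB5 it was -0.75 without YW-LF replicate 2 and -0.18 when replicate 1 was left out instead. Among the 7 genes of the ring, the structural subunits PSMB1 and PSMB4 were above DMSO in both treated libraries and PSMB5 alone was below in both. These shares were 28.6% above and 14.3% below, against 28% and 27.8% of all genes tested. PSMB1 was at 1.12 and PSMB4 at 1.01 in log2 fold change, PSMB3 at 0.78 and PSMB2 at -0.29, the last 2 with overlapping groups. The median was 0.87 and turned to -0.15 without YW-LF replicate 2.

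The 19S cap showed the same split. Its 17 genes, all tested, summed to 2713 and 2668 CPM in DMSO, 2298 CPM in the first YW-LF library and 6362 CPM in the second. In YW-LF replicate 2, 16 of the 17 stood above both DMSO libraries, against 4 in YW-LF replicate 1, where 12 stood below. Of all genes tested, 43.3% stood above in replicate 2, and 44% above and 41.9% below in replicate 1. PSMD2, a large scaffold of the cap base, gave much of the sum. It stood at 621 and 599 CPM in DMSO and at 530 and 2280 CPM with YW-LF (log2 fold change 1.20, SE 0.74, adjusted p = 0.394 by edgeR; -0.22 without YW-LF replicate 2). It made up 12.3% and 12.2% of the CPM of all proteasome genes in DMSO, 11.8% in the first YW-LF library and 21.1% in the second. Without PSMD2 the cap still summed to 2093 and 2069 CPM in DMSO and to 1768 and 4082 CPM in YW-LF, with the same order of libraries.

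**Figure D2:**
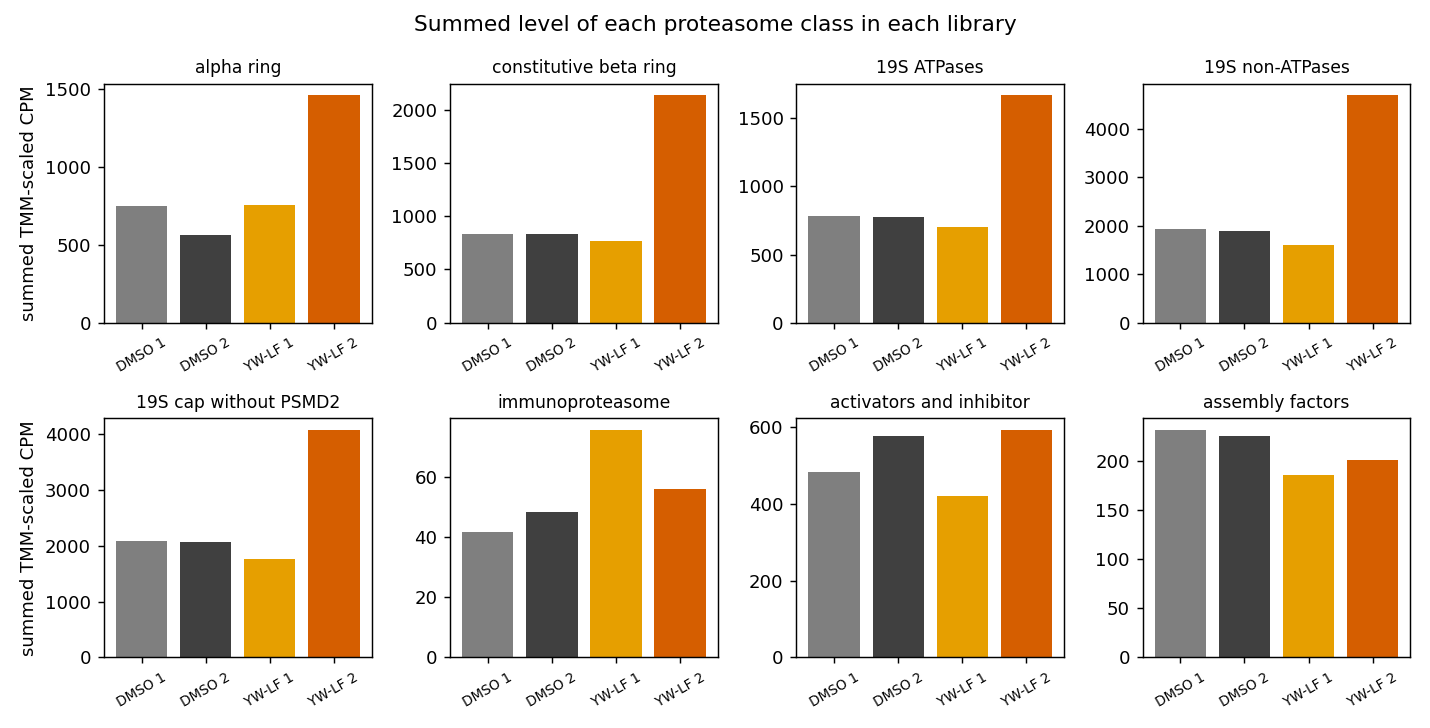
Each bar is the summed TMM-scaled CPM of a class of proteasome genes in 1 library (n = 1 library per bar, axes start at 0). YW-LF replicate 2 is highest in the alpha ring (1462 CPM), the beta ring (2138 CPM) and the cap classes, YW-LF replicate 1 is highest in the immunoproteasome (75.7 CPM), and both are below DMSO in the assembly factors.

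Among the 6 ATPases of the cap, which form the unfolding ring, the log2 fold changes ran from 0.37 for PSMC6 to 1.12 for PSMC4. PSMC4 stood at 113 and 125 CPM in DMSO and at 110.5 and 406 CPM in YW-LF. Replicate 1 was slightly below DMSO and replicate 2 well above (SE 0.63, adjusted p = 0.350 by edgeR), and the sign turned to -0.12 without YW-LF replicate 2. PSMC6 stood at 72.0 and 44.4 CPM in DMSO and at 68.8 and 82.0 CPM with YW-LF (0.37, SE 0.39), so the groups overlapped. PSMC1, PSMC2, PSMC3 and PSMC5 lay between them, from 0.41 for PSMC1 to 0.65 for PSMC5. PSMC2 was the only ATPase above DMSO in both treated libraries, and 0 were below. These shares were 16.7% and 0%, against 28% and 27.8% of all genes tested. The median of the ATPases was 0.52 and turned to -0.12 without YW-LF replicate 2.

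Of the 11 non-ATPases, PSMD4, PSMD7 and PSMD14 were above DMSO in both treated libraries and 0 were below in both. The share above, 27.3%, is near the 28% of all genes tested, of which 27.8% were below. PSMD4, a receptor for ubiquitin chains, stood at 121 and 123 CPM in DMSO and at 179 and 349 CPM in YW-LF. The groups were well apart, with a DMSO spread of a few CPM (log2 fold change 1.11, SE 0.46, edgeR unadjusted p = 0.0474, adjusted p = 0.240). PSMD14, the metalloprotease that cuts ubiquitin chains off the substrate, stood at 103 and 74.0 CPM in DMSO and at 117 and 241 CPM with YW-LF (1.02, SE 0.47, adjusted p = 0.278 by edgeR). PSMD4 and PSMD14 kept a positive log2 fold change without YW-LF replicate 2, at 0.54 and 0.40. PSMD11, a scaffold of the cap lid, was the lowest of the class, at 156 and 190 CPM in DMSO and 70.4 and 170 CPM with YW-LF (-0.53, SE 0.50). Replicate 2 lay between the DMSO libraries and replicate 1 far below them, and its value was -1.31 without YW-LF replicate 2 and -0.03 when replicate 1 was left out instead. PSMD1 and PSMD6 were also negative (-0.14 and -0.10), and PSMD3, PSMD7, PSMD8, PSMD12 and PSMD13 ran from 0.17 for PSMD3 to 0.85 for PSMD7.

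The sum of the cap moved with that of the core. On levels per kilobase of transcript, the ratio of cap to core was 0.87 and 0.97 in DMSO replicates 1 and 2, 0.77 in the first YW-LF library and 0.82 in the second. Without PSMD2 these ratios were 0.74, 0.83, 0.66 and 0.62. Both treated libraries were therefore below both DMSO libraries, although their sums lay far apart. With 2 libraries a group, an exact two-sided permutation test cannot go below p = 0.333, so no test was made of any ratio or sum. Per kilobase the DMSO means of the 46 tested genes ran from 6.92 CPM for PSMB9 to 232 CPM for PSME3, with medians of 70.2 CPM in the alpha ring, 87.2 CPM in the constitutive beta ring, 61.1 CPM in the ATPases, 49.0 CPM in the non-ATPases, 18.6 CPM in the assembly factors and 9.57 CPM in the immunoproteasome. These levels depend on the transcript length taken for each gene.

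The interferon-inducible catalytic subunits did not move as a unit. PSMB9, the counterpart of PSMB6, lies on chromosome 6 from 32844136 to 32859585 (plus strand, GENCODE 29 on GRCh38). It stood at 4.78 and 6.04 CPM in DMSO and at 16.2 and 13.9 CPM in YW-LF. Both treated libraries were well above DMSO and near each other, with means of 5.41 ± 0.889 (SD, n = 2) and 15.0 ± 1.63 CPM (SD, n = 2), 2.77-fold in the edgeR fit (log2 fold change 1.47, SE 0.44, edgeR unadjusted p = 0.0136, adjusted p = 0.157, adjusted p = 0.0498 by DESeq2). The edgeR adjusted p of PSMB9 was 0.0126 and 0.0171 without YW-LF replicate 1 or 2, and 0.865 and 0.867 without DMSO replicate 1 or 2. PSMB8, the counterpart of PSMB5, stood at 26.3 and 29.7 CPM in DMSO and at 51.0 and 24.3 CPM in YW-LF. Here replicate 1 was high and replicate 2 below DMSO (0.43, SE 0.45, adjusted p = 0.621 by edgeR; -0.21 without YW-LF replicate 1 and 0.85 when replicate 2 was left out instead). PSMB10, the counterpart of PSMB7, had the reverse order, at 10.8 and 12.5 CPM in DMSO and 8.46 and 17.7 CPM with YW-LF (0.16, SE 0.50; -0.47 without YW-LF replicate 2). The length and GC correction also turned its sign, to -0.12. PSMB11, the catalytic subunit of the thymus, had 0, 0, 3 and 2 counts in DMSO replicates 1 and 2 and YW-LF replicates 1 and 2, at or under the 3 counts that a count of 0 allows.

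The class summed to 41.8 and 48.3 CPM in DMSO and to 75.7 and 55.9 CPM in YW-LF, so YW-LF replicate 1, which was low for the core and cap, was the highest here. As a share of the 6 catalytic genes per kilobase, PSMB8, PSMB9 and PSMB10 made up 11.8% and 13.5% in DMSO, 22.7% in the first YW-LF library and 5.83% in the second. The treated libraries thus lay on opposite sides of DMSO. Per kilobase the ratio of PSMB8 to PSMB5 was 0.48 and 0.60 in DMSO, 1.63 in the first YW-LF library and 0.53 in the second. For PSMB9 over PSMB6 the ratios were 0.072 and 0.087 in DMSO, 0.25 in the first YW-LF library and 0.043 in the second, and for PSMB10 over PSMB7 they were 0.058, 0.067, 0.050 and 0.035. Only the last of the 3 pairs put both treated libraries on the same side of DMSO.

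**Figure D3:**
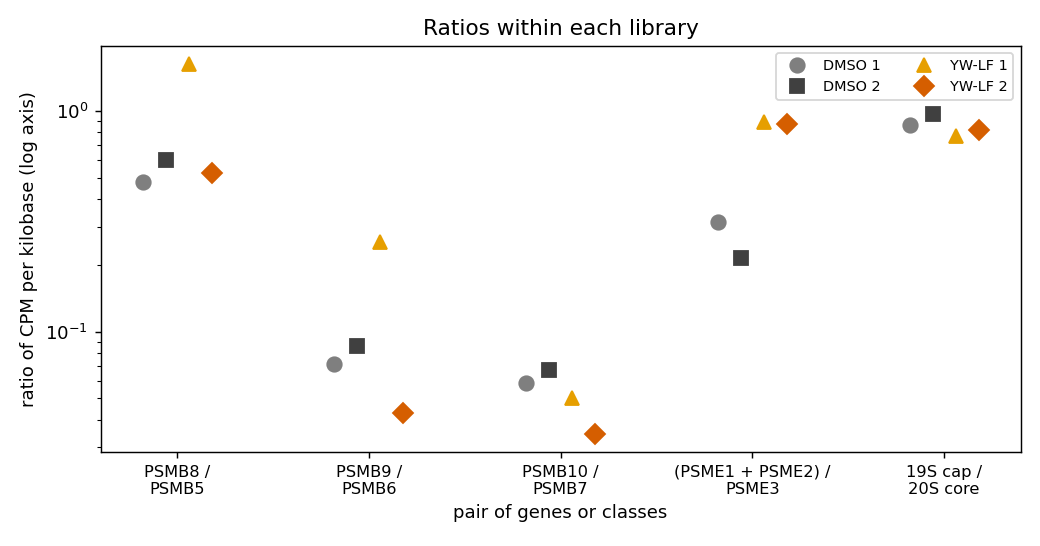
Each point is the ratio of TMM-scaled CPM per kilobase of 2 genes or classes in 1 library, on a log axis. For PSMB8 over PSMB5 and PSMB9 over PSMB6, YW-LF replicate 1 (1.63 and 0.25) is above the other libraries, whereas for PSME1 plus PSME2 over PSME3 both YW-LF libraries (0.89 and 0.87) are above both DMSO libraries (0.31 and 0.22).

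PSMB9 starts 488 bases from TAP1, the peptide transporter gene, and is read in the opposite direction, in RefSeq on GRCh38.p14. TAP1 stood at 34.5 and 32.7 CPM in DMSO and at 73.3 and 43.1 CPM in YW-LF, above DMSO in both libraries like PSMB9 (log2 fold change 0.79, SE 0.40, adjusted p = 0.305 by edgeR). TAP1 was named for its position beside PSMB9. The stretch between their annotated exons, chr6:32853979-32854160 on the plus strand, is shown because both neighbours lay above DMSO in both treated libraries. Of all genes tested, 28% lay above DMSO in the same way. Capitals mark GC boxes (GGGCGG) and 1 core of an antioxidant response element (TGACNNNGC), the kind of site bound by NFE2L1 and NFE2L2, each searched on both strands.
PSMB9: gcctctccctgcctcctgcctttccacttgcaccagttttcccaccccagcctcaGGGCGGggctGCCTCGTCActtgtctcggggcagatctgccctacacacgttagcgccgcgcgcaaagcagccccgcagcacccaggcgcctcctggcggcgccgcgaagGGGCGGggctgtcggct

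Among the activators of the core, 3 genes set the treatments apart without overlap. Of the 5 activators and inhibitor, 40% lay above DMSO in both treated libraries and 20% below, against 28% and 27.8% of all genes tested. PSME1 and PSME2, the subunits of PA28 alpha-beta, lay above DMSO in both treated libraries, and PSME3, the PA28 gamma subunit that forms its own nuclear ring, lay below. PSME1 stood at 41.1 and 43.2 CPM in DMSO and at 62.9 and 75.9 CPM with YW-LF (log2 fold change 0.72, SE 0.34, adjusted p = 0.288 by edgeR). PSME2 stood at 27.6 and 21.9 CPM in DMSO and at 38.9 and 73.9 CPM with YW-LF (1.19, SE 0.44, unadjusted p = 0.0320, adjusted p = 0.208 by edgeR). PSME3 stood at 193 and 270 CPM in DMSO and at 101 and 147 CPM with YW-LF (-0.90, SE 0.41, adjusted p = 0.276 by edgeR).

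Whether PSME1, PSME2 or PSME3 passed in edgeR when 1 library was left out depended on which library it was. Each of these 3 genes kept its direction in each fit that left out 1 library (0.56 to 0.85 for PSME1, 0.64 to 1.57 for PSME2 and -1.20 to -0.65 for PSME3). Per kilobase, the ratio of PSME1 plus PSME2 to PSME3 was 0.31 and 0.22 in DMSO and 0.89 and 0.87 in YW-LF. The treated libraries were near each other in this ratio, as they were in the ratio of cap to core (0.77 and 0.82). The sum of PSME1 and PSME2 was 102 CPM in the first YW-LF library and 150 CPM in the second. A ratio of 2 genes in 1 library does not depend on the scaling. Of the other regulators, PSME4, the PA200 activator, stood at 93.7 and 73.1 CPM in DMSO and at 81.8 and 144 CPM with YW-LF (0.43, SE 0.42; -0.04 without YW-LF replicate 2). PSMF1, the inhibitor PI31, stood at 128 and 170 CPM in DMSO and at 136 and 152 CPM in YW-LF, within the DMSO spread (-0.05, SE 0.37), and its sign turned to 0.05 with library size as the only scaling.

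**Figure D4:**
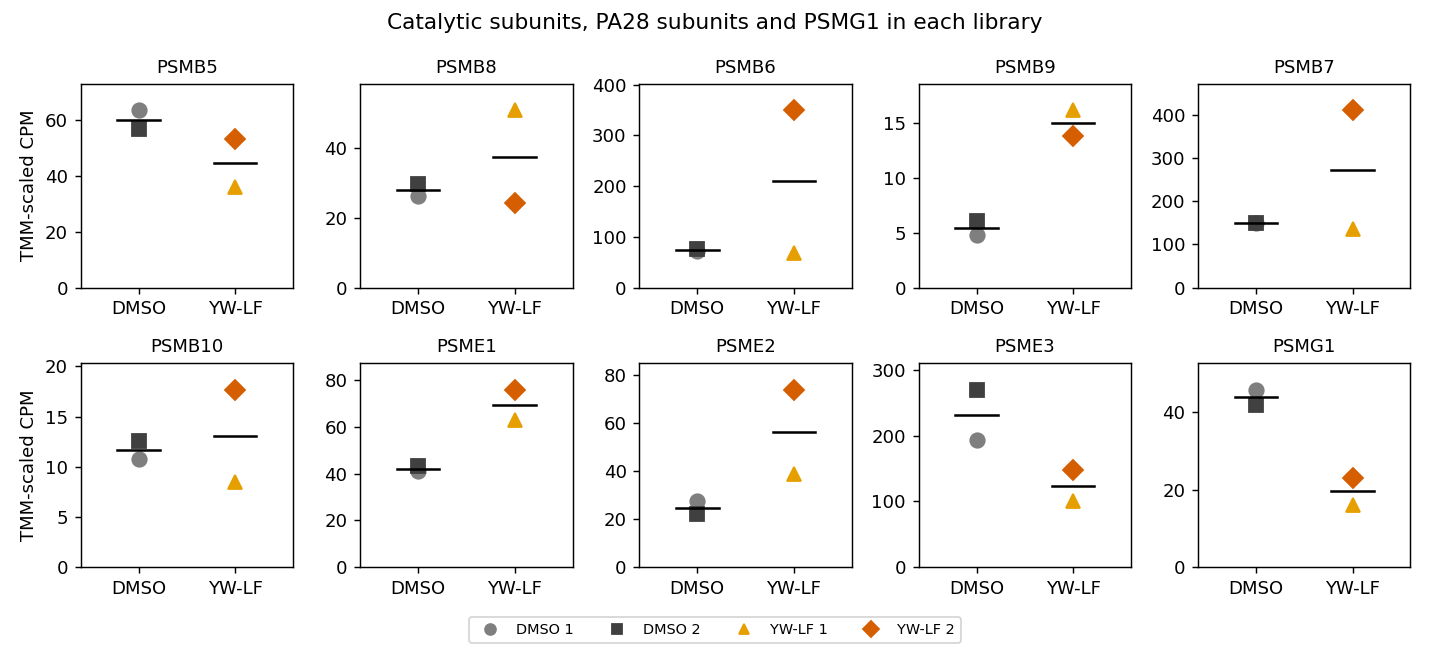
TMM-scaled CPM of 10 genes by treatment. Points are libraries and bars are group means (n = 2 each, axes start at 0). The groups do not overlap for PSMB5, PSMB9, PSME1, PSME2, PSME3 and PSMG1. Over all genes tested, the groups are likewise apart in 28% (YW-LF higher) and 27.8% (YW-LF lower). YW-LF replicate 2 stands apart for PSMB6 (349.7 CPM) and PSMB7 (410 CPM).

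PSME1 and PSME2 lie 10416 bases apart, start to start, on chromosome 14 and are read toward each other in RefSeq on GRCh38.p14. Sequences before the RefSeq starts of these genes and of PSME3 and PSMG1 are shown because the groups did not overlap in these 4 genes. This trait is not particular to them. Among the 46 tested proteasome genes, 14 lay above DMSO in both treated libraries and 5 below. Of all genes tested, 28% lay above and 27.8% below. The stretch of PSME1 is chr14:24135944-24136157 on the plus strand, outside annotated exons, and capitals mark 1 antioxidant response element core (TGACNNNGC) and 3 GC boxes.
PSME1: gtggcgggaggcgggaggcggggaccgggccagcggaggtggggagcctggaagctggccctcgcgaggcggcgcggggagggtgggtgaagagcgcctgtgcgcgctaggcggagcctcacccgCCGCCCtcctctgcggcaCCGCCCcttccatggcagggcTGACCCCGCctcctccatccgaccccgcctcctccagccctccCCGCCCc
For the other genes 30 bases around 1 match are shown, at chr14:24146619-24146648 (minus strand), chr17:42833156-42833185 (plus strand) and chr21:39183616-39183645 (minus strand). These stretches lie before a RefSeq start but within the bounds that GENCODE 29 gives PSME2, PSME3 and PSMG1. They were not limited to bases outside annotated exons. Capitals mark an interferon response element (GAAA, any 2 bases, GAAA) in PSME2, a gamma-activated site (TTCNNNGAA) in PSME3, and in PSMG1 an antioxidant response element core that runs into 2 overlapping GC boxes.
PSME2: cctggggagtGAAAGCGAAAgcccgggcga
PSME3: gagaaggtcccTTCGGTGAAggcgagttcc
PSMG1: ggcccagggcaTGACAGCGCGGGCGGGCGG

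RefSeq windows matched 42 of the 48 genes (51 windows, since some genes have several starts), and PSMA7, PSMB1, PSMB6, PSMB7, PSMD4 and PSMG3 were not matched. In the 250 bases before a start, the antioxidant response element core occurred in 25.5% of the proteasome windows and in 10.9% of all 35116 windows. The interferon response element occurred in 9.8% against 3.02%, the gamma-activated site in 13.7% against 6.57%, the CCAAT box in 37.3% against 32% and the GC box in 60.8% against 42.6%. The 13 genes with the antioxidant response element core include PSMB9, PSME1 and PSME2, which were above DMSO in both treated libraries, and PSMG1 and PSMD5, which were below. The other 8 (PSMA4, PSMB3, PSMC5, PSMD3, PSMD9, PSMD12, PSME4 and PSMG2) overlapped with DMSO. Of the genes with the interferon response element, PSME2 and PSMB4 were above DMSO in both treated libraries, while PSMA4, PSMB10 and PSMG4 overlapped. Of those with the gamma-activated site, PSMA2 was above, PSME3 and PSMB5 were below, and PSMB8, PSMC4 and PSMD3 overlapped. PSMA8, which also has that site, had 0 counts in each library. A match is a run of letters and was not tested as a binding site.

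The assembly factors lay mostly on the low side, with 5 of 7 log2 fold changes negative (6563 of 13816 among all genes tested). Of the 7 genes, PSMG1, PSMG3 and PSMD5 were below DMSO in both treated libraries, PSMD10 was above (27.8% below and 28% above among all genes tested), and the median of the 7 was -0.13 (-0.36 to -0.09 when 1 library at a time was left out). PSMG1, which pairs with PSMG2 to start the alpha ring, lies on chromosome 21 from 39174769 to 39183851 (minus strand). It stood at 45.7 and 41.8 CPM in DMSO and at 16.1 and 22.8 CPM in YW-LF. Both treated libraries were below DMSO, 2.25-fold in the fit (log2 fold change -1.17, SE 0.38, edgeR unadjusted p = 0.0187, adjusted p = 0.174; adjusted p = 0.107 by DESeq2). The value for PSMG1 was -1.45 without YW-LF replicate 2 (adjusted p = 0.0157 by edgeR) and -0.94 without YW-LF replicate 1 (0.0268), and its adjusted p was 0.839 and 0.867 without DMSO replicate 1 or 2. PSMG2, its partner, stayed within a few CPM, at 25.7 and 25.8 CPM in DMSO and at 26.7 and 21.3 CPM with YW-LF (-0.10, SE 0.36), a sign that turned to 0.02 with library size as the only scaling. The partners were not tested against each other. PSMG3 was at -0.61 and PSMG4 at -0.13.

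Among the chaperones of the cap base, PSMD10 (gankyrin, also known to bind CDK4) stood at 16.2 and 13.2 CPM in DMSO and at 27.5 and 24.1 CPM in YW-LF. The groups were apart and the treated libraries near each other (log2 fold change 0.81, SE 0.38, adjusted p = 0.280 by edgeR). PSMD5 stood at 76.9 and 77.0 CPM in DMSO and at 60.3 and 57.7 CPM with YW-LF (-0.38, SE 0.33, adjusted p = 0.544 by edgeR), a small gap that was wider than the difference between replicates of either group. PSMD9 stood at 31.1 and 34.82 CPM in DMSO and at 30.3 and 45.9 CPM with YW-LF (0.21, SE 0.38), with overlapping groups.

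POMP, the chaperone that sits at the beta ring during core assembly but whose symbol lies outside the spelling rule, lay on the high side. It stood at 46.3 and 30.2 CPM in DMSO and at 79.1 and 231 CPM with YW-LF (log2 fold change 2.02, SE 0.59, adjusted p = 0.151 by edgeR, adjusted p = 0.00908 by DESeq2; 1.04 without YW-LF replicate 2). It belonged to a list of 20 partners of the proteasome, of which 4 were above DMSO in both treated libraries and 7 below (20% and 35%, against 28% and 27.8% of all genes tested), with a median of 0.23. At an unadjusted p under 0.05, 3 partners were higher and 1 lower (15% and 5%, against 11.5% and 9.01%). ADRM1, a ubiquitin receptor of the cap, followed the cap, at 228 and 254 CPM in DMSO and 165 and 474 CPM with YW-LF (0.41, SE 0.57; -0.55 without YW-LF replicate 2). ZFAND2A, a stress-induced protein that binds the cap, stood at 9.61 and 15.4 CPM in DMSO and at 33.9 and 65.5 CPM with YW-LF (1.99, SE 0.49, adjusted p = 0.127 by edgeR, adjusted p = 0.00535 by DESeq2). UBQLN2, a shuttle of ubiquitinated proteins, was lower in both treated libraries (-1.07, SE 0.35, adjusted p = 0.180 by edgeR).

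Genes of the route that controls proteasome transcription were also followed. NFE2L1, the transcription factor that drives proteasome genes when degradation is limited, stood at 259 and 304 CPM in DMSO and at 429 and 232 CPM in YW-LF, with replicate 1 high and replicate 2 low (0.23, SE 0.46; -0.28 without YW-LF replicate 1). This order is the reverse of that of the core and cap sums. NFE2L2, the related factor of the oxidative stress response, stood at 97.9 and 98.1 CPM in DMSO and at 198 and 203 CPM in YW-LF, with close replicates (1.03, SE 0.35, adjusted p = 0.190 by edgeR). In the list of 17 genes, 6 were above DMSO in both treated libraries and 3 below (35.3% and 17.6%, against 28% and 27.8% of all genes tested), with a median of 0.22. At an unadjusted p under 0.05, 6 were higher and 1 lower (35.3% and 5.88%, against 11.5% and 9.01%). The members of lowest p were partners or repressors of these factors. MAFK, a small MAF protein that pairs with both, stood at 32.3 and 29.6 CPM in DMSO and at 173.5 and 410 CPM with YW-LF (3.24, SE 0.54, adjusted p = 0.121 by edgeR, adjusted p = 2.86e-07 by DESeq2). BACH1, a repressor at the same sites, was at 2.37 (SE 0.46) and the small MAF protein MAFF at 2.09 (SE 0.53), both above DMSO in both treated libraries; edgeR adjusted p was 0.121 and 0.130.

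Ubiquitin genes differed among themselves. Of 29 genes of ubiquitin supply and conjugation, 7 were above DMSO in both treated libraries and 6 below (24.1% and 20.7%, against 28% and 27.8% of all genes tested), and the median was 0.15. At an unadjusted p under 0.05, 2 were higher and 0 lower (6.9% and 0%, against 11.5% and 9.01%), so the list was under the share of all genes in each count. RPS27A, which encodes ubiquitin fused to a ribosomal protein, stood at 147 and 119 CPM in DMSO and at 261 and 1179 CPM with YW-LF (log2 fold change 2.44, SE 0.75, adjusted p = 0.164 by edgeR, adjusted p = 0.0030 by DESeq2). Its replicate 2 was far above replicate 1, as for the core and cap genes. UBE2B, a ubiquitin-conjugating enzyme, was at 1.17 (SE 0.34) and its relative UBE2A at -0.82 (SE 0.36), with edgeR adjusted p = 0.153 and 0.258.

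Of 20 genes of interferon signalling and antigen processing, the partners of the immunoproteasome, 9 were above DMSO in both treated libraries and 3 below (45% and 15%, against 28% and 27.8% of all genes tested), and the median was 0.15. At an unadjusted p under 0.05, 4 were higher and 1 lower (20% and 5%, against 11.5% and 9.01%). IRF1, which drives PSMB9 transcription, stood at 24.0 and 23.9 CPM in DMSO and at 30.5 and 19.1 CPM with YW-LF (0.05, SE 0.40; -0.33 without YW-LF replicate 1). The groups of IRF1 overlapped, and their means differed by less than the treated libraries did. HLA-B, an MHC class I heavy chain, stood at 58.6 and 57.0 CPM in DMSO and at 259 and 206.5 CPM with YW-LF (2.01, SE 0.37, adjusted p = 0.121 by edgeR, adjusted p = 4.67e-04 by DESeq2). STAT2, a transcription factor of the interferon response, was also above DMSO in both treated libraries (1.20, SE 0.37, adjusted p = 0.162 by edgeR). The 3 genes below DMSO in both treated libraries were B2M (-0.88, SE 0.36), TAPBP (-0.75, SE 0.39) and TAP2 (-0.50, SE 0.37). The antigen processing genes therefore did not move together.

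Some of these counts may hold reads of other genes. In GENCODE 29 the exons of PSMB8 and PSMB9 overlap on opposite strands, as do those of PSME1 with EMC9, PSME2 with RNF31 and PSME3 with BECN1, and the sources used here do not say whether the authors counted by strand. Exons of PSMB9 also overlap those of PSMB8-AS1 on the same strand, which counting by strand would not separate. Same-strand overlaps with other genes are also annotated for PSMA1, PSMA2, PSMA6, PSMB10, PSMD9, PSME2 and PSMF1. The reference lists 13 pseudogene symbols for PSMC1, 6 for PSME2 and 4 for PSMA6, whose reads could be shared with the gene.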

How the data were processed

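Messenger RNA of MDA-MB-231 cells was sequenced in 4 libraries, 2 per group, grouped by the labels. Per the labels' protocols, 1.4 µg of total RNA went into each library. The authors deposited whole-number counts per gene without normalization. The sources used here do not name the aligner, counter or annotation. All 20263 identifiers are human, although a mouse build (GRCm38, also called mm10) stands in the submitters' processing notes. Symbols came from a reference table, coordinates and transcript lengths from GENCODE 29 (GRCh38), with the APPRIS principal transcript of median length. The files hold 2 further columns that match no label and were not used.

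The test was edgeR 4.0.16 in R 4.3.3 (filterByExpr, TMM scaling, quasi-likelihood F-test over all 4 libraries, Benjamini-Hochberg adjustment over 13816 genes, threshold 0.05, unadjusted p also marked at 0.05). The standard error is the log2 fold change divided by the square root of F. Log2 fold changes are YW-LF minus DMSO. Alternatives were DESeq2 1.42.0, limma-voom (limma 3.58.1), other scalings, count filters, the replicate block and leaving out each library. The fits were tested on simulated data. The genes and lists were chosen with earlier results of these data known. Named genes were a preset list (the catalytic subunits and their counterparts, PSMA8, PSMB11, PSMD4, PSMD14, the activators and inhibitor, PSMG1, PSMG2, PSMD5, PSMD9, PSMD10, POMP, ADRM1, NFE2L1, NFE2L2 and IRF1), the highest and lowest gene of each class, and the 3 genes of lowest p in each partner list; 2 genes under this rule are not reported here. Other members are named in ranges or counts, TAP1 for its position and the sequences after their genes' values were seen.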

Additional observations from a re-analysis of the deposited data

How the results depend on the processing

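Over all genes tested, 0 were called in edgeR with the other scalings, the stricter count filter, without mitochondrially encoded genes, with the length and GC correction (chosen after seeing the data) and in limma-voom. DESeq2 called 1464, a count filter of at least 1 gave 275, the replicate block 331, and leaving out 1 library gave 64 to 5882. Nothing in the labels links a replicate number to a batch, and the correlation of same-numbered deviations was 0.0368, so the block pairs libraries by number only. Among proteasome genes 1 was called by DESeq2 and 0 with the block, and 0 to 27 (27 without YW-LF replicate 1, 4 without YW-LF replicate 2) when 1 library was left out, where the lone library is assumed to vary like the other group. Proteasome genes at an unadjusted p under 0.05 numbered 5, but 10 in DESeq2, 8 with library size only, 3 with the length and GC correction, 4 with the replicate block and 0 to 31 without 1 library. The share of all genes at that mark was taken in the main fit only. There it was 11.5% higher and 9.01% lower, against 8.7% and 2.17% of the proteasome genes. The counts in the other settings therefore have no share of all genes beside them. Whether they are particular to the proteasome was not tested, nor was the cause of their shifts. With the block, MAFK (adjusted p = 0.0158), BACH1 (0.0369), HLA-B (0.0452) and ZFAND2A (0.0485) passed in edgeR, and no other named gene did.

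The class medians of log2 fold change without 1 library ranged from -0.22 to 0.99 in the non-ATPases, -0.0404 to 0.78 in the activators and inhibitor, -0.12 to 0.97 in the ATPases, -0.15 to 1.45 in the beta ring, 0.38 to 1.12 in the alpha ring, -0.36 to -0.0929 in the assembly factors and 0.36 to 0.85 in the immunoproteasome. The log2 ratio of class totals (0.78 core, 0.69 cap, 0.55 immunoproteasome) ranged from 0.0199 to 1.27, -0.24 to 1.24 and 0.31 to 0.74. With the length and GC correction the medians were 0.38 in the alpha ring, 0.39 in the beta ring, 0.49 in the ATPases and 0.37 in the non-ATPases. They were 0.37 in the activators and inhibitor, -0.37 in the assembly factors and 0.23 in the immunoproteasome. PSMB6 and PSMB9 stood at 0.85 and 1.05 with that correction, against 1.495 and 1.47 without it. The immunoproteasome median was 0.62 with library size only.

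Of 39 named genes, 25 kept their sign in each alternative. Leaving out 1 library, the sign turned within the ranges of ADRM1 (-0.55 to 0.97), IRF1 (-0.33 to 0.34), NFE2L1 (-0.28 to 0.59), PSMA4 (-0.56 to 0.0515), PSMB6 (-0.12 to 2.23), PSMB7 (-0.15 to 1.46), PSMB8 (-0.21 to 0.85), PSMB10 (-0.47 to 0.60), PSMC4 (-0.12 to 1.77), PSMD2 (-0.22 to 1.90), PSMD9 (-0.13 to 0.47), PSME4 (-0.0404 to 0.78), PSMF1 (-0.22 to 0.16) and PSMG2 (-0.28 to 0.0387). PSMF1 and PSMG2 were at 0.0457 and 0.0168 with library size only, and PSMF1 and PSMB10 at 0.12 and -0.12 with the length and GC correction. The number of libraries, 2 per group, limits the precision.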
